A study of Mus musculus with 6 samples.

Results

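The genes described here are the 3 D-type cyclins (Ccnd1, Ccnd2, Ccnd3), their kinases Cdk4 and Cdk6, and 5 inhibitors of cyclin-dependent kinases (Cdkn1a, Cdkn1b, Cdkn2a, Cdkn2b, Cdkn2c). They were taken by symbol, and all 10 were found among the 46959 gene symbols of a table of RPKM values (reads per kilobase of gene, relative to the reads of the library). The table holds 6 libraries of polyadenylated RNA from pancreatic islet cells of adult mice, purified by flow cytometry. The mice carried 3 transgenes: mIns1-H2b-mCherry, a nuclear red reporter under an Ins1 promoter that marks insulin-producing cells, Sst-cre, a recombinase active in somatostatin-producing delta cells, and a floxed YFP allele that Cre switches on permanently. Beta cells were sorted as mCherry-positive, delta cells as YFP-positive, and the population called transdifferentiated in the labels as positive for both. All 3 groups carry the same alleles, and isolated islets were kept overnight in medium with 5.5 mM glucose before sorting. Serum at 10% and trypsin at 0.25% are likewise given for all 6 libraries. Males and females were pooled separately, 10 to 12 animals at a time, which gives 2 libraries per group, and sex and pool cannot be told apart. The submitters' design text also has a sentence on bitransgenic females and in 1 place gives alpha cells as the origin of this population, but elsewhere, as in the title and labels, the origin is delta cells. Because the YFP label records past as well as present Cre activity, and each sort holds many cells, a population value is an average over whatever cells passed the gate.

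D-type cyclins bind Cdk4 or Cdk6 in the G1 phase and phosphorylate the retinoblastoma protein and its relatives, which releases E2F transcription factors and lets a cell enter S phase. The INK4 proteins, encoded by Cdkn2a, Cdkn2b and Cdkn2c, bind Cdk4 and Cdk6 and keep cyclin D away from them. The CIP/KIP proteins p21 (Cdkn1a) and p27 (Cdkn1b) bind a wider range of cyclin-kinase pairs. Adult islet endocrine cells divide rarely, and in mouse beta cells cyclin D2, Cdk4 and p27 are known to affect how many beta cells form, while p16 (one product of Cdkn2a) accumulates with age.

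The stretches of genome are shown before 4 of the genes that separated beta cells from delta cells, Cdkn1b downwards and the other 3 upwards. Each is the 250 bases before a RefSeq transcription start (GRCm38.p6), printed 5′ to 3′ on the strand of the gene, at chr6:134920151-134920400 (Cdkn1b, plus strand), chr4:89311033-89311282 (Cdkn2b, minus strand), chr17:29090729-29090978 (Cdkn1a, plus strand, the more upstream of its 2 starts) and chr10:127063285-127063534 (Cdk4, plus strand). Capitals mark the motifs found.
Cdkn1b: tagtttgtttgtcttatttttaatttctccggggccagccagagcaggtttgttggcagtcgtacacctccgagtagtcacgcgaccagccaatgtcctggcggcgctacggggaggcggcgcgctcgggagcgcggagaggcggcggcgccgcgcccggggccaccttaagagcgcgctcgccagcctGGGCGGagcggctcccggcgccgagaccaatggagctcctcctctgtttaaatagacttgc
Cdkn2b: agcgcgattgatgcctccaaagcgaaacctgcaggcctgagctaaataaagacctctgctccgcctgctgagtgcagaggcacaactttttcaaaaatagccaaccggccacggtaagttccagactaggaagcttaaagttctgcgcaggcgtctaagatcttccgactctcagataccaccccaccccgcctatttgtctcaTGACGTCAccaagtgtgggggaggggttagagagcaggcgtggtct
Cdkn1a: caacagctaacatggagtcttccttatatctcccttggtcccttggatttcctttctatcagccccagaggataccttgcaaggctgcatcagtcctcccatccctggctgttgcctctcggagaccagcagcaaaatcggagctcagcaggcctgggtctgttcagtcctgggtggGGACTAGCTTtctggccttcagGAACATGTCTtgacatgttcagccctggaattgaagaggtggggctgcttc
Cdk4: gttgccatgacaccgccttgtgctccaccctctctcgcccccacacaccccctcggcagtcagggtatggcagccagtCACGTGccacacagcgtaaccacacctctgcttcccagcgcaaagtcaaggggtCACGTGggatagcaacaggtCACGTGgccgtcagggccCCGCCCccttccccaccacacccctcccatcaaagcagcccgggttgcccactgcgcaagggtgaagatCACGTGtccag
Both strands were searched for E2F sites (TTTCGCGC, TTTGGCGC, TTTCCCGC or TTTGCCGC), the cyclic AMP response element TGACGTCA, the E-box CACGTG, the GC box GGGCGG and the p53 half-site. The p53 half-site was added after the Cdkn1a window had been seen, and none of the matches shown overlap. Cdkn1b has 1 GC box, 61 bases before the start, and Cdkn2b has 1 cyclic AMP response element, 46 bases before it. Cdkn1a has 2 p53 half-sites, beginning 73 and 51 bases before its more upstream start. The window before its other start, at chr17:29093519-29093768, has 0 p53 half-sites and 2 GC boxes. Cdk4 has 4 E-boxes and 1 GC box. Of 32851 RefSeq windows of this length, 1.86% hold an E2F site, 1.55% the response element, 6.02% an E-box, 32.7% a GC box and 7.13% a p53 half-site. RefSeq windows were matched for 8 of the 10 genes. These matches are letters in a sequence, and binding was not measured.

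Depth and composition set the frame for all values. The denominators, worked out from the value of 1 read, ran from about 10900000 reads in the female transdifferentiated library to about 21600000 reads in the male beta library. Insulin RNA fills the beta libraries, where Ins2 alone took 34.8% and 41.3% of summed RPKM, against 17.9% and 18.6% in transdifferentiated and at most 0.36% in delta libraries, and RPKM is relative to the library total. Median-of-ratios factors were 0.783 and 0.868 for beta and 1.08 to 1.13 for the other libraries, so fold changes below are given on the deposited scale and, for the comparisons with beta cells, mostly also after that scaling. Of 7 beta-cell markers all were at 1 RPKM or more in every population, and their summed level was 221900 to 310210 RPKM in beta, 86442 to 94413 in transdifferentiated and 1441 to 1767 in delta libraries. The 5 delta-cell markers summed to 79.7 and 96.6, 13507 and 13590, and 51785 and 60683 RPKM in the same order. Alpha-cell and PP-cell markers were also high in the delta libraries and lay between beta and delta levels in the transdifferentiated ones. Alpha-cell markers summed to 461 and 644 RPKM in beta, 1800 and 2594 in transdifferentiated and 15150 and 16521 in delta libraries. PP-cell markers summed to 802 and 558, 11877 and 12041, and 36498 and 37076 RPKM in the same order. In bulk libraries, fewer cells of a type and less RNA per cell cannot be told apart.

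Of the 10 genes, 8 passed the filter on low values (at least 1 RPKM in 2 or more libraries) and Cdk6 and Cdkn2a did not. Ccnd2 had the highest level of the 10, with a mean RPKM over the 6 libraries above that of 97.1% of the 13022 tested genes. Ccnd1 and Cdk4 followed, above 93.7% and 93.6%, then Cdkn1a (89.7%) and Cdkn1b (87.2%). Ccnd3, Cdkn2b and Cdkn2c lay lower, above 33.7%, 31.4% and 19.9% of tested genes.

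**Figure D1:**
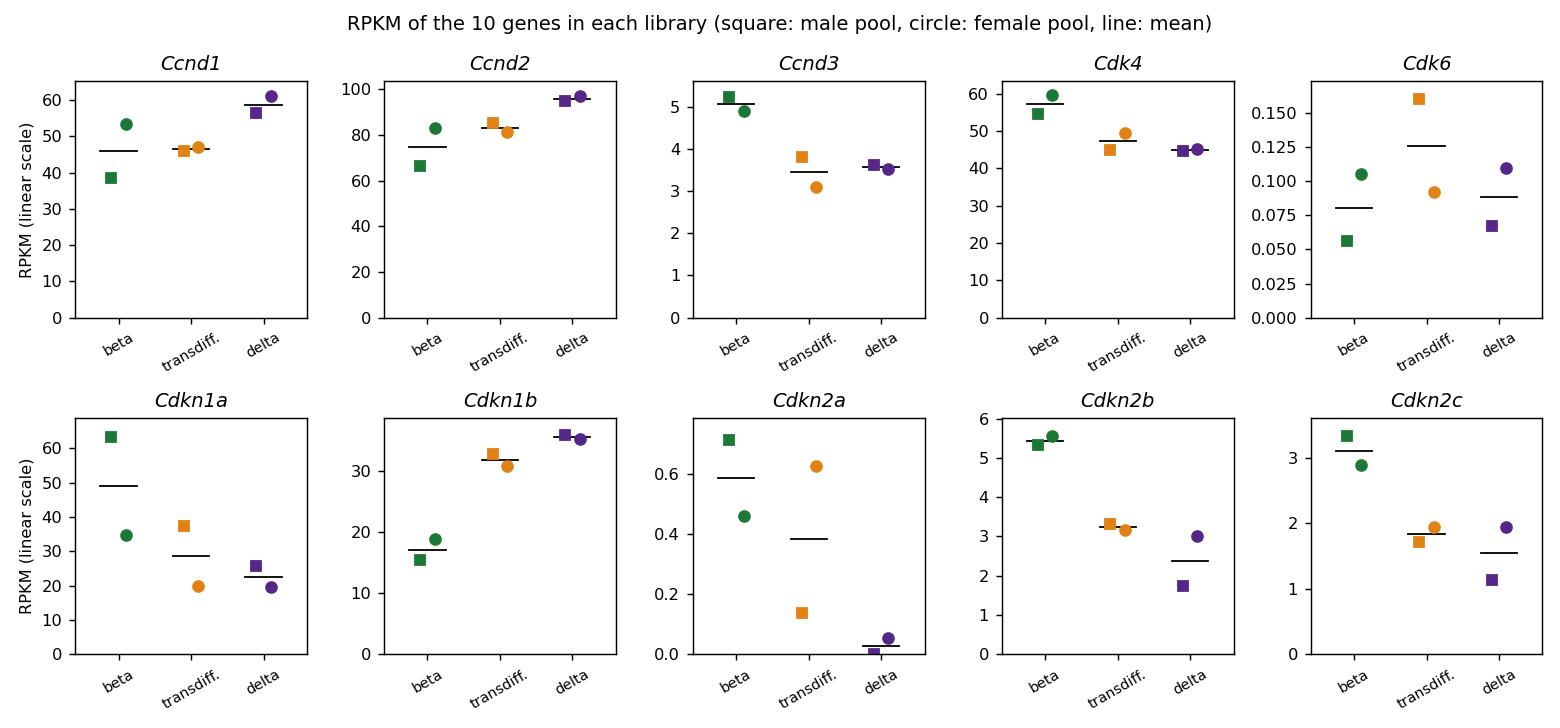
RPKM of each of the 10 genes (vertical axis, linear scale from 0, 1 panel per gene) in beta, transdifferentiated and delta libraries. Squares are male pools, circles are female pools and lines are means of 2 libraries. Beta libraries stand highest for Ccnd3, Cdk4, Cdkn2b and Cdkn2c and lowest for Cdkn1b.

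Beta and delta cells differed in most of these genes. Ccnd3, Cdk4, Cdkn1a, Cdkn2b and Cdkn2c were higher in beta cells, Cdkn1b was lower, and Ccnd2 was lower on the deposited scale only. In the limma fit 7 of the 8 tested genes passed an adjusted p of 0.05, 5 higher and 2 lower in beta cells, where 57.9% of all tested genes passed, 11.7% higher and 46.3% lower. Their median log2 fold change was 0.37, beside -0.36 for all tested genes. After scaling 5 were higher and 1 lower, where 57.5% of all genes passed, 27.8% higher and 29.7% lower, and the medians were 0.76 and -0.02. With the pool as a block the counts were again 5 and 2, where 60.6% passed, 12.7% higher and 47.9% lower. All 8 had groups that did not overlap, 5 higher and 3 lower, as did 80.9% of tested genes, 20.1% higher and 60.9% lower. On scaled values 6 did not overlap, 5 higher and 1 lower, beside 80.2% of all genes, 39.4% higher and 40.8% lower.

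Among the cyclins, Ccnd2 (cyclin D2, chromosome 6, 127125162 to 127152193) was at 66.3 and 82.9 RPKM in beta, 85.1 and 81.3 in transdifferentiated and 94.8 and 97.2 in delta libraries, the male pool first here and below. The delta libraries were the highest and the beta and transdifferentiated ranges overlapped. Beta differed from delta by -0.37 (SE 0.13, adjusted p = 0.048), the same as the median of all genes, and by 0.057 (SE 0.11, adjusted p = 0.67) after scaling. That call was also lost when any 1 library was left out except beta replicate 2 (adjusted p = 0.08 to 0.19), and when hormone genes were taken out of the total (adjusted p = 0.13). Ccnd1 (cyclin D1, chromosome 7, 144929931 to 144939925) followed Ccnd2 closely, at 38.7 and 53.3 RPKM in beta, 45.9 and 47.0 in transdifferentiated and 56.5 and 61.1 in delta libraries. Its difference between beta and delta was -0.36 (SE 0.16, adjusted p = 0.091) and 0.059 after scaling, and without beta replicate 2 it was -0.59 (adjusted p = 0.0049). The male beta library was the lowest of the 6 for both genes. Ccnd3 (cyclin D3, chromosome 17, 47505051 to 47599691) had the other order, at 5.24 and 4.90 RPKM in beta, 3.81 and 3.11 in transdifferentiated and 3.63 and 3.53 in delta libraries. Both beta libraries were above the other 4. Beta exceeded delta by 0.41 (SE 0.13, adjusted p = 0.029) and by 0.76 after scaling (SE 0.12, adjusted p = 0.0029). On deposited values Ccnd3 missed the threshold without the filter (adjusted p = 0.061), without beta replicate 1 (0.082) and without the male or the female delta library (0.12 and 0.14).

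Shares within a library do not depend on its scaling. Ccnd2 made up 60.2% and 58.7% of the summed D cyclin RPKM in beta, 63.2% and 61.9% in transdifferentiated and 61.2% and 60.1% in delta libraries. The ratio of Ccnd2 to Ccnd1 lay between 1.55 and 1.86 in the 6 libraries, and both transdifferentiated libraries, at 1.86 and 1.73, were above the other 4, while the beta and delta ranges overlapped. Ccnd3 held 4.75% and 3.47% in beta, 2.83% and 2.36% in transdifferentiated, and 2.34% and 2.18% in delta libraries, so its share was highest in both beta libraries. These shares and ratios were not tested.

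Cdk4, the kinase partner of all 3 D cyclins (chromosome 10, 127063534 to 127067920), was at 54.6 and 59.7 RPKM in beta, 45.1 and 49.5 in transdifferentiated and 44.7 and 45.1 in delta libraries. The beta libraries were above the other 4, and the transdifferentiated and delta ranges overlapped. Beta exceeded delta by 0.34 (SE 0.11, adjusted p = 0.033) and by 0.76 after scaling (SE 0.10, adjusted p = 0.0015). On deposited values it missed the threshold without the female beta library (adjusted p = 0.056), the female transdifferentiated library (0.051) and each delta library (0.16 and 0.14). The gene shares 19.7% of its exon bases with Tspan31, a tetraspanin gene on the opposite strand that was at 39.9 to 51.5 RPKM, and the library kit does not mark strand. Tspan31 itself differed by 0.16 between beta and delta cells (SE 0.11, adjusted p = 0.24). Likewise Ccnd3 shares 4.11% of its exon bases with Bysl, a ribosome biogenesis gene, which was higher in beta than in delta cells by 0.56 (SE 0.17, adjusted p = 0.027). Ccnd1 shares 23.4% of its exon bases with LTO1, listed in the table under its older symbol Oraov1, which was at 6.57 to 7.67 RPKM and differed by -0.03 (adjusted p = 0.81). The part of these genes in the Cdk4, Ccnd3 and Ccnd1 values was not tested.

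The CIP/KIP inhibitors went in opposite directions. Cdkn1b (p27, chromosome 6, 134920401 to 134925513) was at 15.3 and 18.8 RPKM in beta, 32.7 and 30.8 in transdifferentiated and 35.8 and 35.1 in delta libraries. The 3 groups did not overlap, and both beta libraries were far below the other 4. Beta against delta gave -1.02 (SE 0.13, adjusted p = 7.36e-04), and -0.61 after scaling (SE 0.099, adjusted p = 0.0029). Cdkn1a (p21, chromosome 17, 29090976 to 29100727), a p53 target that also responds to stress, was at 63.5 and 34.8 RPKM in beta, 37.4 and 19.8 in transdifferentiated and 25.6 and 19.7 in delta libraries. Beta libraries were above delta libraries, while the transdifferentiated range overlapped both. The beta-delta difference was 1.03 (SE 0.36, adjusted p = 0.045) and 1.45 after scaling (SE 0.39, adjusted p = 0.018). Without the male beta library (replicate 1) it was 0.61 (adjusted p = 0.23), and it also missed the threshold without the male (0.083) or female (0.18) delta library and without the filter (0.13).

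Cdkn1a was higher in the male than in the female library of each cell type, by 1.82-fold in beta, 1.89-fold in transdifferentiated and 1.30-fold in delta cells. With the pool as a term, an analysis chosen after seeing the data, the male pools exceeded the female ones by 0.70 (SE 0.12, adjusted p = 0.12). At the adjusted threshold 0.361% of tested genes passed, 0.315% higher and 0.0461% lower, and none of the 8 did. Of the 8, Cdkn1a alone had an unadjusted p under 0.05, a threshold at which the share of all genes was not worked out. The male library was above the female one in all 3 cell types for 13.4% of tested genes and below it for 18.3%. Acinar-cell markers moved in the same direction: the 12 genes summed to 9033 and 342 RPKM in the male and female beta libraries, 2450 and 175 in the transdifferentiated and 843 and 636 in the delta libraries. Of the 12, 10 were at 1 RPKM or more in each population. Amy2a5 was at 0 in all 6 libraries and Prss1 at 0 in the beta and delta libraries. Their part in the Cdkn1a values was not tested. In the blocked fit the beta-delta difference of Cdkn1a, 1.03, had an SE of 0.15 (adjusted p = 0.0014).

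The INK4 genes were highest in beta cells. Cdkn2b (p15, chromosome 4, 89306299 to 89311039), which responds to TGF-beta signalling in many cells, was at 5.33 and 5.55 RPKM in beta, 3.32 and 3.16 in transdifferentiated and 1.73 and 3.02 in delta libraries. The 3 groups did not overlap, and the male delta library was the lowest. Beta exceeded delta by 0.96 (SE 0.19, adjusted p = 0.0050) and by 1.30 after scaling (SE 0.19, adjusted p = 0.0017). Cdkn2c (p18, chromosome 4, 109660876 to 109667189) was at 3.33 and 2.89 RPKM in beta, 1.72 and 1.95 in transdifferentiated and 1.14 and 1.95 in delta libraries, from 52 to 193 reads per library. Both beta libraries were above the other 4. Beta exceeded delta by 0.71 (SE 0.18, adjusted p = 0.013) and by 1.01 after scaling (SE 0.19, adjusted p = 0.0046). The unscaled call was lost without beta replicate 1 (adjusted p = 0.069) or delta replicate 1 (adjusted p = 0.077). The calls of Cdkn1b and Cdkn2b between beta and delta cells held under all 15 alternatives run.

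**Figure D2:**
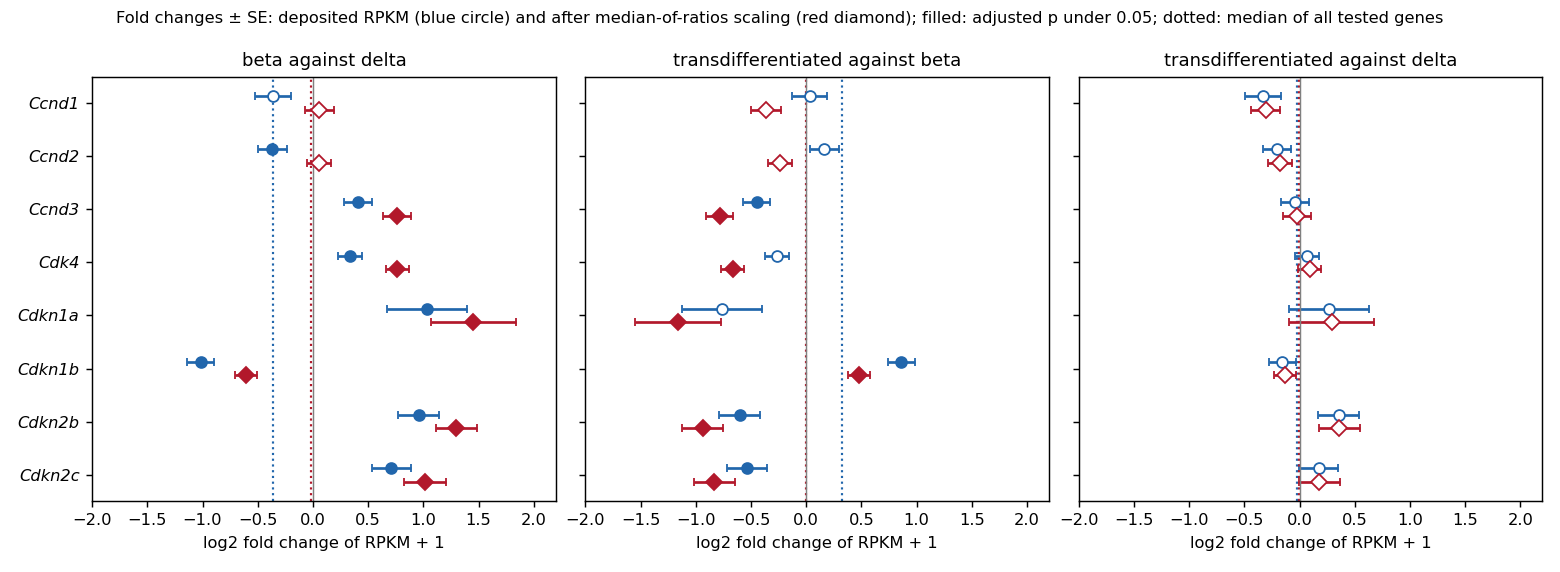
Log2 fold change of RPKM + 1 (horizontal axis) with its standard error for the 8 tested genes in the 3 comparisons, from deposited RPKM (blue circles) and after median-of-ratios scaling (red diamonds). Filled symbols have an adjusted p under 0.05 and dotted lines are medians of all tested genes. No gene is filled in the comparison of transdifferentiated with delta cells.

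Transdifferentiated cells were then set against beta cells, whose reporter they share. Cdkn1b was higher in transdifferentiated cells, and Ccnd3, Cdkn2b and Cdkn2c were lower. On deposited values 1 of 8 genes was higher and 3 lower, where 51.0% of tested genes passed, 42.5% higher and 8.46% lower. After scaling 1 was higher and 5 lower, where 53.9% of all genes passed, 27.8% higher and 26.1% lower, the additional ones being Cdk4 and Cdkn1a. With the pool as a block 1 was higher and 4 lower, where 53.9% passed, 44.1% higher and 9.78% lower. On deposited values 5 had groups that did not overlap, 1 higher and 4 lower, beside 76.0% of all genes, 58.5% higher and 17.5% lower. The median log2 fold change of the 8 was -0.36, beside 0.32 for all tested genes, and after scaling -0.73 beside -0.0017. On scaled values none of the 8 had overlapping groups, 7 lower and 1 higher in transdifferentiated cells, where 77.2% of all genes did not overlap, 39.1% higher and 38.2% lower.

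Cdkn1b differed by 0.86 (SE 0.13, adjusted p = 0.0021) and by 0.47 after scaling (SE 0.099, adjusted p = 0.0086), and passed under all 15 alternatives. Ccnd3 differed by -0.45 (SE 0.13, adjusted p = 0.023) and by -0.78 after scaling (SE 0.12, adjusted p = 0.0035). Its unscaled call was lost without the filter (adjusted p = 0.052), with the 4 libraries of these groups alone (0.056), and without any 1 library except beta replicate 2 and transdifferentiated replicate 1 (0.054 to 0.12). Cdkn2b differed by -0.60 (SE 0.19, adjusted p = 0.034) and Cdkn2c by -0.54 (SE 0.18, adjusted p = 0.042), or -0.94 and -0.83 after scaling (adjusted p = 0.0072 and 0.011). Both unscaled calls were lost without the filter (adjusted p = 0.094 and 0.11) and without any 1 of the 4 beta and transdifferentiated libraries (0.093 to 0.13 for Cdkn2b and 0.072 to 0.17 for Cdkn2c). Cdkn2c also missed the threshold with a pseudocount of 0.1 (adjusted p = 0.059).

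Cdkn1a was at -0.77 in transdifferentiated against beta cells (SE 0.36, adjusted p = 0.12), which did not pass. It was -0.34 without beta replicate 1, -1.19 without beta replicate 2 (adjusted p = 0.049, which passed), -1.21 without transdifferentiated replicate 1 and -0.32 without transdifferentiated replicate 2. With the pool as a block it passed at the same size (SE 0.15, adjusted p = 0.0061), and after scaling it was -1.16 (SE 0.39, adjusted p = 0.042). Cdk4 was at -0.27 (SE 0.11, adjusted p = 0.077), and at -0.67 after scaling (SE 0.10, adjusted p = 0.0033). It also passed with hormone genes out of the total (-0.33, adjusted p = 0.047) and without the male beta library (-0.33, adjusted p = 0.043). Ccnd1 and Ccnd2 were at 0.03 and 0.16 on deposited values (adjusted p = 0.88 and 0.33) and turned to -0.37 and -0.24 after scaling (adjusted p = 0.058 and 0.11). Ccnd2 passed as higher without beta replicate 2 (0.32, adjusted p = 0.029) and was at 0.0053 without beta replicate 1. With scaling and block together Ccnd1 passed (-0.37, adjusted p = 0.030).

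Against delta cells, whose lineage label they carry, transdifferentiated cells had 0 of 8 genes past the limma threshold, where 12.7% of tested genes passed, 5.53% higher and 7.2% lower. At an unadjusted p under 0.05 the count was also 0, but the share of all genes at that threshold was not worked out. After scaling 0 passed, where 12.3% of all genes did, 5.91% higher and 6.43% lower. With the pool as a block 0 passed, where 14.8% of all genes did, 6.5% higher and 8.28% lower. In that fit 1 of the 8 had an unadjusted p under 0.05, again without a share of all genes to set beside it. The median log2 fold change was 0.01, beside -0.03 for all tested genes. The largest differences were those of Cdkn2b (0.35, 95% interval -0.09 to 0.80, adjusted p = 0.29) and Ccnd1 (-0.33, interval -0.71 to 0.05, adjusted p = 0.25). Cdkn2b was at 0.077 without delta replicate 1 and at 0.63 without delta replicate 2, and neither passed. Ccnd1 passed with the 4 libraries of these 2 groups alone (adjusted p = 0.046) and without either beta library (0.045 and 0.047). Cdkn1b differed by -0.15 (interval -0.45 to 0.14), Ccnd2 by -0.20 (-0.52 to 0.11), Cdkn2c by 0.17 (-0.25 to 0.60), Cdk4 by 0.07 (-0.19 to 0.33) and Ccnd3 by -0.04 (-0.34 to 0.26). The interval of Cdkn1a was the widest, -0.60 to 1.13 around 0.27. After scaling the 8 values ran from -0.31 for Ccnd1 to 0.36 for Cdkn2b, each with the same sign as before. Groups did not overlap for 4 of the 8, Cdkn2b higher and Ccnd1, Ccnd2 and Cdkn1b lower, where 63.4% of tested genes did not overlap, 27.6% higher and 35.8% lower. The same 4 did not overlap on scaled values, beside 63.3% of all genes, 30.5% higher and 32.8% lower.

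The mean of the transdifferentiated libraries lay between the beta and delta means for 7 of the 8 genes, and for 52.1% of all tested genes. On scaled values it lay between them for 5 of 8, beside 49.4%. It was nearer to delta than to beta cells for Ccnd3, Cdk4, Cdkn1a, Cdkn1b, Cdkn2b and Cdkn2c on both scales, as for 71.9% of all genes (72.5% scaled) and 78.0% of those called between beta and delta cells. On the log2 scale the way from the delta to the beta level covered was 15.2% for Cdkn1b, 20.8% for Cdk4, 25.9% for Cdkn1a, 24.4% for Cdkn2c and 37.1% for Cdkn2b. It was 55.4% for Ccnd2 and 91.4% for Ccnd1, and -10.4% for Ccnd3, whose transdifferentiated mean lay beyond the delta mean. These are deposited values. After scaling it was 21.6% for Cdkn1b, 12.4% for Cdk4, 20.0% for Cdkn1a, 17.8% for Cdkn2c, 27.8% for Cdkn2b and -3.02% for Ccnd3. For Ccnd1 the scaled log2 means were 5.81 in beta, 5.44 in transdifferentiated and 5.75 in delta cells. For Ccnd2 they were 6.51, 6.27 and 6.45. Both transdifferentiated means lay below the other groups, and beta and delta were too close for a position to carry meaning. The median over all genes called between beta and delta cells was 20.9%, and over the 7 of these 8 genes that were called it was 24.4%. After scaling the medians of the same genes were 23.8% and 17.8%, in the other order. The 3 comparisons share libraries and are not independent of one another.

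Ratios between these genes within a library do not depend on its scaling. Cdkn1a exceeded Cdkn1b by 4.14 and 1.85 times in beta libraries. The ratio was 1.14 and 0.643 in transdifferentiated and 0.716 and 0.562 in delta libraries. Both beta libraries lay above the other 4, whose ranges overlapped between groups. Cdkn1a made up 72.0% and 55.7% of the summed RPKM of the 5 inhibitors in beta cells, 49.7% and 35.2% in transdifferentiated and 39.9% and 32.9% in delta cells. Cdkn1b made up 17.4% and 30.1%, then 43.4% and 54.7%, then 55.7% and 58.7%. The sum itself overlapped between all groups, at 62.6 to 88.2 RPKM in beta, 56.3 to 75.3 in transdifferentiated and 59.8 to 64.2 in delta libraries. The 3 INK4 genes together reached 17.2% and 14.9% of the Cdk4 level in beta libraries, 11.5% and 11.6% in transdifferentiated and 6.43% and 11.1% in delta libraries. Summed D cyclins were 2.02 and 2.36 times Cdk4 in beta, 2.99 and 2.66 times in transdifferentiated and 3.46 and 3.59 times in delta libraries. The last 2 ratios separated all 3 groups without overlap.

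**Figure D3:**
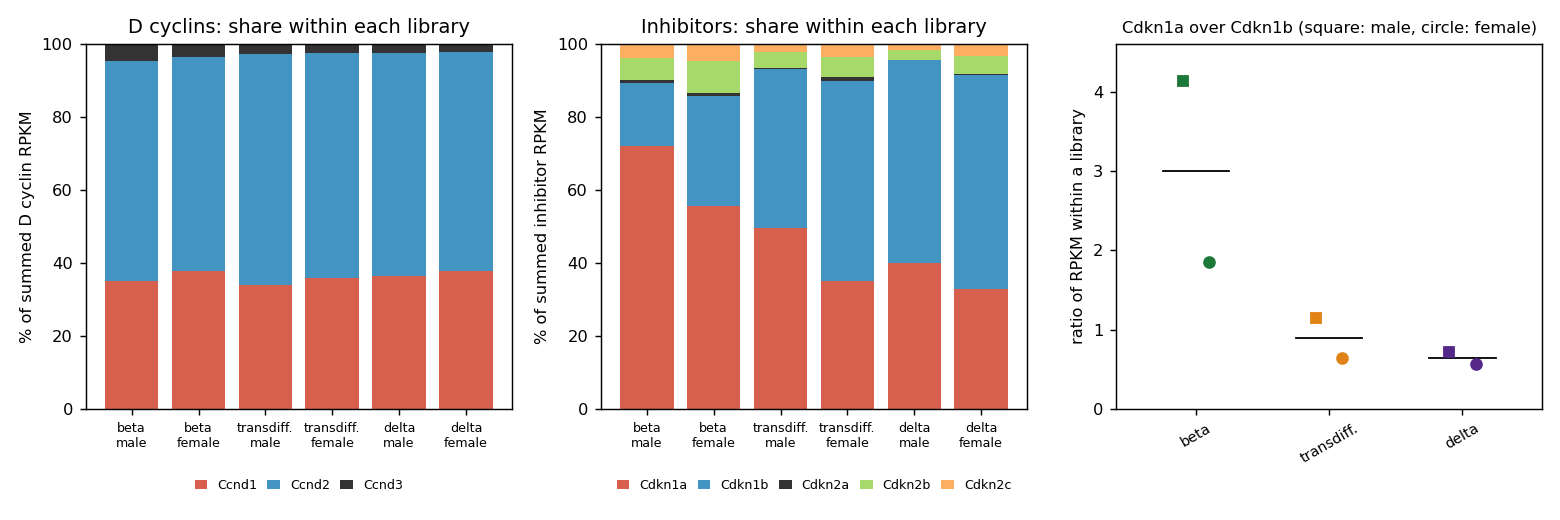
Left and middle, share of each D cyclin and each inhibitor (percent of the summed RPKM of the set, bars from 0 to 100) in each of the 6 libraries. Right, ratio of Cdkn1a to Cdkn1b in the same libraries (squares male, circles female, lines means). Ccnd2 holds 58.7% to 63.2% of the D cyclins in the 6 libraries, whereas Cdkn1b takes 17.4% and 30.1% of the inhibitors in beta cells and 43.4% or more elsewhere.

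Cdk6 and Cdkn2a were near the limit of detection. Cdk6, the second kinase partner of the D cyclins (chromosome 5, 3341485 to 3531008), was at 0.0563 and 0.105 RPKM in beta, 0.16 and 0.0918 in transdifferentiated and 0.0674 and 0.109 in delta libraries, which is 14 to 30 reads over 13989 exon bases. The ranges of the 3 groups overlapped. Cdk4 stood 282 to 970 times above Cdk6 in RPKM. Pooled over 2 libraries the ratio of Cdk6 reads in transdifferentiated to beta cells, relative to depth, was 1.60 (95% exact interval 1.03 to 2.48). This interval covers counting error only, not the spread between libraries, and without the filter Cdk6 was at 0.06 (adjusted p = 0.45).

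Cdkn2a (chromosome 4, 89274471 to 89294653) encodes p16 and, from a separate first exon, p19Arf, an activator of p53. The table gives 1 value for both. It was at 0.712 and 0.459 RPKM in beta (18 and 11 reads), 0.136 and 0.626 in transdifferentiated (2 and 8 reads) and 0 and 0.0544 in delta libraries (0 and 1 read). The 3 reads taken as a floor were worth 0.151 and 0.163 RPKM in the delta libraries, so both delta values were under it. Both beta libraries were above both delta libraries, and the transdifferentiated range crossed that of beta. Over both libraries the level was 0.589 RPKM in beta (95% Poisson interval 0.394 to 0.846), 0.364 in transdifferentiated (0.175 to 0.670) and 0.0261 in delta cells (0.000662 to 0.146). The beta to delta ratio was 22.5 with a counting interval of 3.74 to 920.2, and the transdifferentiated to delta ratio 13.9 with one of 1.98 to 604.6. In the fit without a filter, beta exceeded delta by 0.62 on the log2(RPKM + 1) scale (SE 0.19, adjusted p = 0.068), and transdifferentiated exceeded delta by 0.40 (adjusted p = 0.35), so neither passed. Immune-cell markers also differed: the 12 genes summed to 202 and 220 RPKM in beta, 49.5 and 58.2 in transdifferentiated and 78.4 and 93.2 in delta libraries, with 11 of 12 at 1 RPKM or more in beta and 4 in each other group. Lyz2 was at 5.82 and 7.99 RPKM in beta and at 0 in both delta libraries, where Adgre1 and Tyrobp were also at 0. C1qa went the other way, at 34.9 and 40.5 RPKM in beta and 59.3 and 76.9 in delta libraries, and made up most of the delta sum. Their part in the Cdkn2a, Cdkn2b and Cdkn2c values was not tested.

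**Figure D4:**
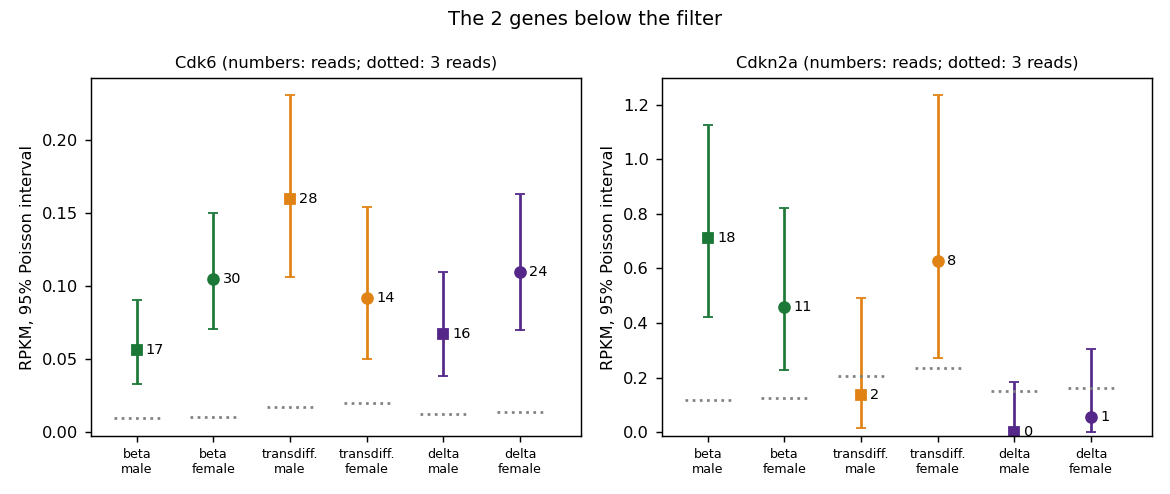
RPKM of Cdk6 (left) and Cdkn2a (right) in each library with 95% Poisson intervals, which cover counting error only. Numbers beside the points are reads and dotted lines mark 3 reads. Cdkn2a has 18 and 11 reads in beta libraries and 0 and 1 in delta libraries.

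Other genes of the G1 to S pathway were followed in fixed lists. The genes named from them kept their direction after scaling and, except Gmnn, Mcm6 and Smad3, their call. Of 11 tested pocket proteins and E2F factors, 2 were higher and 7 lower in beta than in delta cells (median -0.45, and -0.17 after scaling, when 3 were higher and 2 lower). Of all tested genes 11.7% were higher and 46.3% lower in that comparison, and 27.8% and 29.7% after scaling. E2f1, the activating factor released by the retinoblastoma protein, was at 4.69 and 5.38 RPKM in beta, 1.97 and 2.65 in transdifferentiated and 0.411 and 0.445 in delta libraries. All 3 groups were apart. Both delta libraries were under 1 RPKM, so E2f1 passed the filter only through the other groups, where it is higher. Its calls against delta cells therefore cannot be separated from the filter. E2f1 was higher in beta than in delta cells by 2.08 (SE 0.15, adjusted p = 8.55e-05) and in transdifferentiated than in delta cells by 1.21 (SE 0.15, adjusted p = 0.0040), and lower in transdifferentiated than in beta cells by 0.87 (-0.87, SE 0.15, adjusted p = 0.0035). The repressor-type E2f4 was higher in beta than in delta cells by 0.52 (adjusted p = 0.0058; 0.94 after scaling), and not without delta replicate 1. Lower in beta cells were E2f3 (-0.70, adjusted p = 0.0056; -0.43 after scaling) and Tfdp2, a dimer partner of E2F (-0.69, adjusted p = 0.0038; -0.40 after scaling). Rb1, the retinoblastoma gene itself, was at 3.84 and 4.62 RPKM in beta and 9.63 and 8.43 in transdifferentiated libraries, a difference of 0.94 (SE 0.14, adjusted p = 0.0020) and of 0.60 after scaling (adjusted p = 0.0056). In transdifferentiated against beta cells this list had 5 higher and 2 lower (median 0.50), beside 42.5% and 8.46% of all genes. After scaling it had 2 higher and 2 lower (median 0.16), beside 27.8% and 26.1%. Tfdp2 was at 0.65 (adjusted p = 0.0063; 0.37 after scaling) and E2f4 at -0.31 (adjusted p = 0.046; -0.70 after scaling), the latter lost without any 1 library except beta replicate 1. Against delta cells E2f1 alone was called, where 12.7% of all tested genes were.

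Of 15 tested partners of G1 and S phase, 0 were higher and 4 lower in beta than in delta cells (median -0.18), and after scaling 4 were higher and 2 lower (median 0.14). In beta against delta cells the shares of all genes were 11.7% and 46.3%, then 27.8% and 29.7% after scaling. Ccne2, a cyclin E that drives Cdk2, was lower by 0.90 (-0.90, SE 0.13, adjusted p = 0.0014) and Ccng2, a cyclin of resting cells, by 0.82 (-0.82, adjusted p = 0.0022), or -0.68 and -0.48 after scaling. The beta libraries were at 0.690 and 0.769 RPKM for Ccne2, which passed the filter only through the other groups. In transdifferentiated against beta cells 5 were higher and 1 lower (median 0.14), and scaling turned this to 2 higher and 5 lower (median -0.11), beside 42.5% and 8.46%, then 27.8% and 26.1%, of all genes. Ccne2 was at 0.96, Ccng2 at 0.72 and Cdc37, a chaperone cofactor that loads Cdk4 onto Hsp90, at -0.47 (adjusted p = 0.0016, 0.0048 and 0.013), or 0.75, 0.40 and -0.87 after scaling. Cdc37 missed the threshold without transdifferentiated replicate 1. Against delta cells Cks1b, a kinase subunit needed for p27 breakdown, was the 1 gene called (-0.62, adjusted p = 0.041), which is 6.67% of the 15. Of all tested genes 12.7% were called there, 5.53% higher and 7.2% lower. The Cks1b call was lost without any 1 of the 4 libraries compared. Of the remaining inhibitors, the INK4 gene Cdkn2d (p19) was at 6.72 to 9.16 RPKM over the 6 libraries and was not called in any of the 3 comparisons on deposited values. After scaling Cdkn2d was higher in beta than in delta cells (0.59, SE 0.16, adjusted p = 0.020) and lower in transdifferentiated than in beta cells (-0.60, SE 0.16, adjusted p = 0.020). Cdkn1c (p57) was at 0.456 RPKM or less in all 6 and was not tested. Cdkn2aip, a binding partner of p19Arf, was lower in beta than in delta cells (-0.70, adjusted p = 0.0019; -0.33 after scaling) and higher in transdifferentiated than in beta cells (0.72, adjusted p = 0.0024; 0.37 after scaling).

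Of 12 tested S phase and mitosis genes out of 30, 2 were lower in beta than in delta cells, 1 was higher in transdifferentiated than in beta cells and 0 differed between transdifferentiated and delta cells. The shares of all tested genes for these 3 counts were 46.3% lower, 42.5% higher and 12.7% in either direction. The genes called from the list were Mcm6, a subunit of the replicative helicase (-0.61, adjusted p = 0.016), and Gmnn, the licensing inhibitor geminin (-0.51, adjusted p = 0.028, and 0.46, adjusted p = 0.046). Mcm6 missed the threshold without either delta library, and Gmnn in the first comparison without any 1 of the 4 libraries compared and in the second without any library except transdifferentiated replicate 1. After scaling none of these calls remained (adjusted p = 0.16, 0.32 and 0.40), and 4 genes were then higher in beta than in delta cells and 1 lower in transdifferentiated than in beta cells. The scaled shares of all genes called in those directions were 27.8% and 26.1%.

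Of 17 tested p53 pathway genes, Cdkn1a aside, 4 were higher and 8 lower in beta than in delta cells (median -0.31), and 6 and 6 after scaling (median 0.08). The shares of all genes there were 11.7% and 46.3%, then 27.8% and 29.7% after scaling. The stress-responsive kinase gene Plk3 was at 47.9 and 55.4 RPKM in beta, 20.3 and 26.6 in transdifferentiated and 2.70 and 2.87 in delta libraries. It was higher than in delta cells by 3.79 in beta (SE 0.15, adjusted p = 1.13e-05) and 2.68 in transdifferentiated cells (SE 0.15, adjusted p = 3.77e-04). Gadd45a, a growth arrest gene, was higher than in delta cells by 0.90 and 0.61 (adjusted p = 0.0023 and 0.041), the second lost without any 1 of the 4 libraries compared. Mdm4, which holds p53 inactive, was lower in beta than in delta cells (-1.78, adjusted p = 1.90e-04) and higher in transdifferentiated than in beta cells (2.09, adjusted p = 2.42e-04). Plk2 was lower than in delta cells in both beta (-1.91, adjusted p = 4.31e-05) and transdifferentiated cells (-0.86, adjusted p = 0.0052), the latter lost without delta replicate 2. Sesn1 was lower in transdifferentiated than in delta cells by 0.62 (-0.62, adjusted p = 0.013), lost without any 1 of the 4 libraries. In transdifferentiated against beta cells 7 were higher and 3 lower (median 0.24), and scaling turned this to 5 higher and 6 lower (median -0.12). In that comparison 42.5% of all genes were higher and 8.46% lower, then 27.8% and 26.1% after scaling. Trp53inp1 was at 1.27, Plk3 at -1.12 and Sesn2 at -0.46 (adjusted p = 0.0015, 0.0017 and 0.0080), or 0.91, -1.51 and -0.86 after scaling.

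Of 24 tested upstream regulators of D cyclins and inhibitors, 2 were higher and 16 lower in beta than in delta cells (median -0.55, and -0.19 after scaling, when 6 were higher and 8 lower). Of all tested genes 11.7% were higher and 46.3% lower in beta cells, and 27.8% and 29.7% after scaling. Kmt2a, a histone methyltransferase that works with menin at Cdkn1b and Cdkn2c, was lower (-1.91, SE 0.29, adjusted p = 0.0018), as was the cyclic AMP-responsive factor Creb1 (-1.25, adjusted p = 4.94e-04). Men1, which encodes menin, was higher (0.52, adjusted p = 0.018; 0.92 after scaling), and missed the threshold without the female beta or either delta library. Myc was higher than in delta cells in beta (0.60, adjusted p = 0.0098; 0.92 after scaling) and in transdifferentiated cells (0.65, adjusted p = 0.028), the first lost without delta replicate 1 and the second without any 1 of the 4 libraries compared. In transdifferentiated against beta cells 13 were higher and 0 lower, led by Kmt2a (1.78) and the Polycomb subunit Suz12 (1.38, adjusted p = 3.65e-04). The 13 were 54.2% of the tested list, near the 51.0% of all tested genes that passed, 42.5% higher and 8.46% lower. After scaling 6 were higher and 4 lower, beside 27.8% and 26.1% of all genes, and the median went from 0.49 to 0.14. Bmi1, a Polycomb protein that represses Cdkn2a, was at 14.4 and 12.8 RPKM in beta, at 22.5 or more in both transdifferentiated and at 14.1 and 13.2 in delta libraries. It was higher in transdifferentiated than in delta cells by 0.75 (SE 0.12, adjusted p = 0.0093), lost without the male transdifferentiated or either delta library. Smad3 and Foxo3 were lower there (-0.63 and -0.57, adjusted p = 0.049 and 0.043), and both were lost without any 1 of the 4 libraries. Smad3 also missed the threshold after scaling (0.061) and with the block (0.054). It was at 1.46 and 2.01 RPKM in delta, 0.893 and 0.629 in transdifferentiated and 0.410 and 0.397 in beta libraries. Smad3 thus passed the filter only through the delta libraries, where it is highest, so its call cannot be separated from the filter.

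Genes with the most similar profile over the 6 libraries were found for the 3 genes with the largest range of group means, as the smallest root mean square difference of centred log2 values among 11286 other tested genes. For Cdkn1b these were Zfp451, Ints8 and Wasf3, at 0.029, 0.030 and 0.034. Zfp451 was at 1.83 and 2.49 RPKM in beta, 4.93 and 4.63 in transdifferentiated and 5.75 and 5.23 in delta libraries. For Cdkn1a they were Grhpr, Eno1b and Ctnnbip1, at 0.103, 0.128 and 0.166. Grhpr was at 34.4 and 18.3, 17.6 and 10.8, and 15.0 and 11.3 RPKM in the same order, with the male library above the female one in each cell type. For Cdkn2b they were Gsn, Slc25a29 and Pdyn, at 0.114, 0.128 and 0.129.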

How the data were processed

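Polyadenylated RNA was sequenced from 2 libraries (a male and a female pool) of each of 3 sorted islet populations. The authors deposited RPKM values, per the file's own name; STAR 2.5, featureCounts, edgeR 3.14.0 and the build GRCm38.p4 are named in the submitters' processing notes. Settings, strand handling and any correction of the denominators are not given in the sources used here, and RPKM is not suited to count models.

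The 27 symbols turned into dates were dropped. Exon lengths (GENCODE M21, GRCm38, 44027 symbols matched) gave the value of 1 read, with 83.3% to 86.4% of values under 50 reads whole within 0.01 read. For Ccnd1, Cdkn1a and Cdkn2b reads did not come out whole and are not given. limma 3.58.1 (R 4.3.3, trend, 2-sided, Benjamini-Hochberg over 13022 genes, threshold 0.05) was fitted to log2(RPKM + 1) of all 6 libraries, without a block, so folds of low genes are understated. The fit was also run on simulated data with the same spread for every gene and independent libraries. That run was a check of the code and does not give the error rate in these libraries. Libraries of 1 pool come from the same islets, per the series' design text, and their deviations correlated at 0.24 to 0.47, so the pool is used as a block in an alternative. The block was set by sex alone. Sample titles also hold a token that differs between cell types and not between sexes, and its meaning is not given. Nothing names further replication, so p-values of the fits without a block measure the spread between the male and female pools, sex included. With the block they measure what is left after the average difference between pools is taken out.

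The 10 genes, lists and tests were chosen with earlier results of these data known. All 10 genes are named, and from each list the 2 largest calls in each direction and comparison; Cdkn2d, Cdkn1c and genes on the other strand were added. The alternatives were 2 pseudocounts, 2 filters, 2 scalings, the block, the compared groups alone, each library left out and, added after seeing the data, scaling with the block. The pool contrast was also added then.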

Additional observations from a re-analysis of the deposited data

How the results depend on the processing

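Of 354 values of the 8 tested genes under 15 alternatives, 13 turned direction: 9 under a change of scale or fit and 4 when 1 library was left out. Median-of-ratios scaling, alone or with the replicate block, turned Ccnd1 and Ccnd2 to 0.059 and 0.057 in beta against delta and to -0.37 and -0.24 in transdifferentiated against beta cells. Leaving hormone genes out of the sum turned Ccnd1 to -0.032 in the latter, where it ran from -0.20 (without beta replicate 1) to 0.26 with 1 library left out. In transdifferentiated against delta cells Ccnd3 ran from -0.16 to 0.072 (without transdifferentiated replicate 2), Cdkn1a from -0.17 (without transdifferentiated replicate 1) to 0.71 and Cdkn2c from -0.057 (without delta replicate 1) to 0.40. Scaling moves the median of all genes from -0.36 to -0.02 and from 0.32 to -0.0017 in these 2 comparisons; for the rest the cause was not tested.

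With the pool as a replicate block 7022, 1925 and 7890 genes passed in transdifferentiated against beta, transdifferentiated against delta and beta against delta cells, beside 6642, 1657 and 7546 without it. Among the 8 genes the block changed 1 call, that of Cdkn1a given above. A filter at 5 RPKM, which tests fewer genes, gave 4405 and 1063 in the first 2 comparisons and left out 2 of the 8. With each library left out the counts ran from 4132 to 7086, from 522 to 2055 and from 5031 to 7823. Scaling split the beta-delta calls into 3622 higher and 3865 lower in place of 1521 and 6025, and those of transdifferentiated against beta into 3626 and 3395 in place of 5540 and 1102. Cdk6 and Cdkn2a are limited by read number.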

Other observations

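Below the filter, 18 of the 30 S phase and mitosis genes were not tested. In 6 of them both transdifferentiated libraries were above all 4 beta and delta libraries, which is 33.3%, beside 11.7% of the 13122 genes under the filter and above 0. These 6, named after their values were seen, were Mki67, Top2a, Ccna2, Rrm2, Birc5 and Cenpa. Mki67, a marker of cycling cells, was at 0.451 and 0.911 RPKM in transdifferentiated, 0.156 and 0.131 in beta and 0.292 and 0.196 in delta libraries. Ccna2, the S phase cyclin A2, was at 0.821 and 1.15, 0.182 and 0.275, and 0.549 and 0.437 RPKM in the same order. In the limma fit without a filter Ccna2 passed against beta cells (0.69, SE 0.12, adjusted p = 0.017) and not against delta cells (0.41, adjusted p = 0.15), and Mki67 passed in neither (0.54, adjusted p = 0.051, and 0.42, adjusted p = 0.21). Of the mitotic genes, Cdk1 was at 0.0695 and 0.293 RPKM in transdifferentiated and 0.162 and 0.298 in beta libraries. Other genes of the 18 also went the other way. Cdc20 was at 0.171 and 0.295 RPKM in transdifferentiated, 0.447 and 0.314 in beta and 0.473 and 0.888 in delta libraries. Ccnb1, Cdk1, Foxm1 and Ube2c had negative log2 fold changes against both beta and delta cells, and none passed. The 6 genes therefore do not stand for the whole list. All of these levels are at or under about 1 RPKM.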
